A study of Mus musculus with 12 samples.

Results

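The genes described here build and arrange the neuronal cytoskeleton and the growing axon. They are 34 named genes, taken from an array that tested 12845 genes, and comprise 5 neuronal intermediate filament genes, 4 microtubule-associated protein genes, the doublecortin pair Dcx and Dclk1, 4 stathmins, 4 tubulins, the 5 genes of the collapsin response mediator family, 5 kinesin motors, 2 ankyrins and the growth-cone membrane proteins Gap43, Basp1 and Marcks. Every probe set that the probe table assigns to these symbols was taken (95), of which 77 passed a filter on dim signal. The one with the highest mean signal stands for each gene, but those of suffix _x_at were used only for lack of others. A brighter _x_at probe set of Stmn3 was therefore not the one used. All 34 genes were tested. Prph passed the filter through the R- arrays, on which it is high, and so had to differ there.

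RNA came from mouse embryos at E12.5, in mid-gestation. They were of the transgenic genotype ePet-EYFP, in which the ePet enhancer drives the yellow fluorescent protein EYFP in developing serotonin neurons. Neural tubes were cut into a rostral domain, between the mesencephalic and the pontine flexure, and a caudal domain, from the pontine flexure to the spinal cord, and each was sorted by fluorescence. This gave 4 groups with 3 biological replicates each: R+ and C+, the YFP-positive cells labelled as serotonin neurons of the rostral and caudal domain, and R- and C-, the YFP-negative cells of the same domains. All 4 groups carry the transgene. R- and C- are whole mixtures of every other cell type in the tissue. Each of the 12 Affymetrix Mouse 430 2.0 arrays received cRNA amplified from 200000 sorted cells.

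As background, a young axon is held up by bundles of microtubules, polymers of alpha- and beta-tubulin, and by neurofilaments, which are intermediate filaments assembled from the light, medium and heavy chains (Nefl, Nefm, Nefh), alpha-internexin (Ina) and, in some neurons, peripherin (Prph). Microtubule-associated proteins and doublecortin stabilise microtubules, stathmins destabilise them, kinesins carry cargo along them, and ankyrins tie membrane proteins to the spectrin skeleton. Serotonin neurons of the hindbrain are born in rostral and caudal groups whose axons grow towards the forebrain and the spinal cord respectively.

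Of the 34 genes, 8 passed the threshold of an adjusted p of 0.05 in at least 1 comparison (Nefl, Nefm, Prph, Dcx, Stmn4, Dpysl4, Kif5a and Ank2), and RefSeq promoter entries on GRCm38.p6 were at hand for 3 of these. The 250 bases before the annotated start are shown, 5′ to 3′ on the gene's strand, because they are the called genes with an entry: Prph passed between R+ and R-, Dcx between R- and C-, and Ank2 between C+ and C- and between R+ and C+. Capitals mark TATAAA, the core of a TATA box, and GGGCGG, a GC box, each searched on both strands, with no overlap between them. The Prph window lies on the plus strand at chr15:99054924-99055173. That of Dcx lies on the minus strand at chrX:143933220-143933469 (the furthest upstream of 2 starts among the promoter entries). That of Ank2 lies on the minus strand at chr3:127499116-127499365 (the furthest upstream of 4 starts among these entries). The RefSeq spans of all 3 genes reach further upstream than the starts used.
Prph: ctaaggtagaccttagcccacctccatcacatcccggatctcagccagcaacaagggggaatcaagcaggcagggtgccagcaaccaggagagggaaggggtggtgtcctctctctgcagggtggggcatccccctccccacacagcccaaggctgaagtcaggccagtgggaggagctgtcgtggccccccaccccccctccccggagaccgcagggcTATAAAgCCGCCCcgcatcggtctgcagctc
Dcx: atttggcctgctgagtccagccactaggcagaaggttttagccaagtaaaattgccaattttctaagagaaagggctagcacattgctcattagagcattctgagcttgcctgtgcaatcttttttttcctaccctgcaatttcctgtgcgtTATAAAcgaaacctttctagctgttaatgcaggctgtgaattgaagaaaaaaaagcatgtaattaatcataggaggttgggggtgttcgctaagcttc
Ank2: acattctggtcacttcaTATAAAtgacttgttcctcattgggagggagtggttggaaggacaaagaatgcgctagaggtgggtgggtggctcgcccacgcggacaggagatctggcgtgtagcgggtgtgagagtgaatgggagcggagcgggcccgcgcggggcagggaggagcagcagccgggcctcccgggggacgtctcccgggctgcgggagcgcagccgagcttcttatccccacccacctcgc
In the Prph window TATAAA begins 31 bases before the start and GGGCGG, on the reverse strand, 24 bases before it. TATAAA begins 98 bases before the start of Dcx and 233 bases before that of Ank2. The letters AGATAA, a form of the site of GATA factors, were not in these 3 windows. Among 32851 promoter windows of this length, 12.4% held TATAAA, 32.7% GGGCGG and 9.99% AGATAA. Of the 25 windows found for 18 of the 34 genes, 7, 13 and 1 held them. A match of letters describes the window and shows no binding.

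The sort separated the groups as labelled. All 12 of 12 serotonergic markers tested passed the threshold as higher in R+ than in R- and in C+ than in C-, and their summed signal ran from 88821 to 95462 on the R+ arrays against 5750 to 6050 on the R- arrays, and from 61283 to 66871 on the C+ arrays against 3173 to 4038 on the C- arrays. The YFP-negative cells held more glutamate neuron markers (10 and 9 of 10 lower in the positive cells, rostrally and caudally), GABA and glycine neuron markers (9 and 8 of 10), progenitor and cell cycle markers (13 and 12 of 14) and red blood cell markers (4 of 5 in each), and mesenchyme and vessel markers were lower in the positive cells for 3 and 5 of 9, with 1 higher caudally. Of 16 pan-neuronal markers 5 were higher and 2 lower rostrally, and 4 higher and 1 lower caudally (with the block 10 and 2, and 8 and 2), with medians of 0.36 and 0.17. Of the glutamate, GABA and glycine, red blood cell, and mesenchyme and vessel markers 3, 2, 1 and 3 needed the YFP-negative arrays to pass the filter, which favours such a difference. The part of these cell types in the differences below was not tested. Replicates of the same number deviated together from their group means (correlations from 0.12 to 0.52), most of all replicate 1 (0.33 to 0.52). A fit with the replicate number as a block is therefore given beside each count. The RNA also differed by domain. The beta-actin control ratio of 3' over 5' signal, which is larger where cRNA is shorter, lay between 2.64 and 4.39 on rostral arrays and between 4.52 and 7.69 on caudal ones (3.38 ± 0.61 and 5.77 ± 1.31, SD, n = 6 arrays, exact two-sided permutation p = 0.0022). The permutation p was 0.0093 when arrays were exchanged only within a replicate number. The same ratio for Gapdh overlapped between the domains, at 1.15 to 2.14 rostrally and 1.54 to 4.63 caudally (permutation p = 0.028, and 0.019 within replicate numbers).

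The first question was how YFP-positive cells differed from their neighbours. Light and medium neurofilament chains were lower in both serotonin neuron populations, the stathmin Stmn4 and the kinesin Kif5a were higher in both, and with the replicate block further genes were higher in each domain. Between R+ and R-, 2 of the 34 genes were higher and 3 lower at a Benjamini-Hochberg adjusted p under 0.05 in a limma fit over all genes. Of all genes tested 4.34% were higher and 7.86% lower, so that the counts of this fit (5.88% and 8.82% of the 34) are near the background. Between C+ and C-, 3 of the 34 were higher and 2 lower, beside 5.71% and 7.39% of all genes. The median difference over the 34 genes was 0.14 on the log2 scale rostrally, against -0.01 over all genes, and -0.03 caudally, against -0.04. The difference was under 0.5 in 25 of the 34 genes rostrally and in 28 caudally, against 74.3% and 73.3% of all genes. With the replicate block 11 were higher and 3 lower in R+ than in R- (8.59% and 12.3% of all genes), and 7 higher and 2 lower in C+ than in C- (10.5% and 12.3%). The share of the 34 genes that was higher was then 32.4% rostrally and 20.6% caudally, above the share of all genes, and the share that was lower was 8.82% and 5.88%, below it. Leaving out replicate 1 of all groups gave 8 and 3 of the 34 genes for R+ against R- (4.52% and 8.0% of all genes) and 4 and 3 for C+ against C- (6.5% and 7.79%). All 3 arrays of R+ lay above those of R- for 6 genes and below them for 3 (12.1% and 16.4% of all genes). All 3 arrays of C+ lay above those of C- for 4 genes and below them for 3 (12.3% and 15.1%). In bulk RNA of this kind fewer cells of a type and less RNA per cell cannot be told apart. Whether the biological replicates were separate litters is not in the labels, and p-values refer to the spread between these samples, which may be technical.

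Nefl, the light chain on which neurofilament assembly depends, had signals of 3356, 3849 and 4077 on the R+ arrays and 8011, 10793 and 9694 on the R- arrays. Its signals were 4728, 5524 and 6724 on the C+ arrays and 11519, 14572 and 13570 on the C- arrays. Every YFP-negative array was above every YFP-positive array of its domain. The log2 difference was -1.33 ± 0.15 (SE) between R+ and R- (limma adjusted p = 2.94e-05) and -1.23 ± 0.15 between C+ and C- (adjusted p = 5.24e-05). A further Nefl probe set fell as well, by 1.07 and 0.96 on the log2 scale. Nefm, the medium chain, read 3291, 2004 and 2053 on the R+ arrays, 8016, 6014 and 5496 on the R- arrays, 4301, 3906 and 3190 on the C+ arrays and 8449, 8866 and 8299 on the C- arrays. Here too the groups of a domain did not overlap. The difference was -1.43 ± 0.19 rostrally (limma adjusted p = 0.000115) and -1.18 ± 0.19 caudally (adjusted p = 0.000597). Both chains passed the threshold in both domains under all 20 alternative settings tried.

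Of the other filament genes Ina and Nefh did not pass, and Prph passed rostrally. Ina, which forms filaments early in neuronal development, had means of 17303 ± 4751 in R+ and 19406 ± 7916 in R- (SD, n = 3), and 15553 ± 5346 in C+ and 17857 ± 6461 in C-. Its groups overlapped, with replicate 1 the highest array in each of the 4 groups, and the differences were -0.13 ± 0.30 and -0.19 ± 0.30. Nefh, the heavy chain, which is known to appear late in axon maturation, was dim, with signals of 111 to 268 over the 12 arrays and differences of -0.04 and 0.33 that did not pass. Prph read 142, 219 and 251 on the R- arrays, against 6 to 71 on the R+ arrays, 18 to 71 on the C+ arrays and 10 to 123 on the C- arrays. The 3 R- arrays lay above the other 9. The difference of -2.61 ± 0.76 between R+ and R- passed (limma adjusted p = 0.0364) on these dim signals, which the filter kept through the R- arrays and so favoured. It was lost when any of 5 of the 6 arrays compared was left out (all but replicate 3 of R+; adjusted p from 0.0619 to 0.147), and with an offset of 1 on the log scale (adjusted p = 0.0568). The other Prph probe sets did not pass the filter, and on each of them R+ and R- overlapped. They read 83, 30 and 43 in R- against 16, 23 and 35 in R+, 22, 10 and 91 against 30, 58 and 101, and 63, 108 and 118 against 59, 70 and 8. Peripherin is made by motor and peripheral sensory neurons among others. The summed signal of the 6 motor neuron markers tested was 410 to 582 in R+, 1009 to 1317 in R-, 521 to 884 in C+ and 1718 to 2456 in C-, and 4 of the 6 were kept through the YFP-negative arrays. Of the peripheral sensory markers Runx1 alone was tested, at 13 to 222 over the arrays, and Avil and Scn10a were at or below the filter throughout. The part of other cell types in the Prph and neurofilament differences was not tested.

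**Figure D1:**
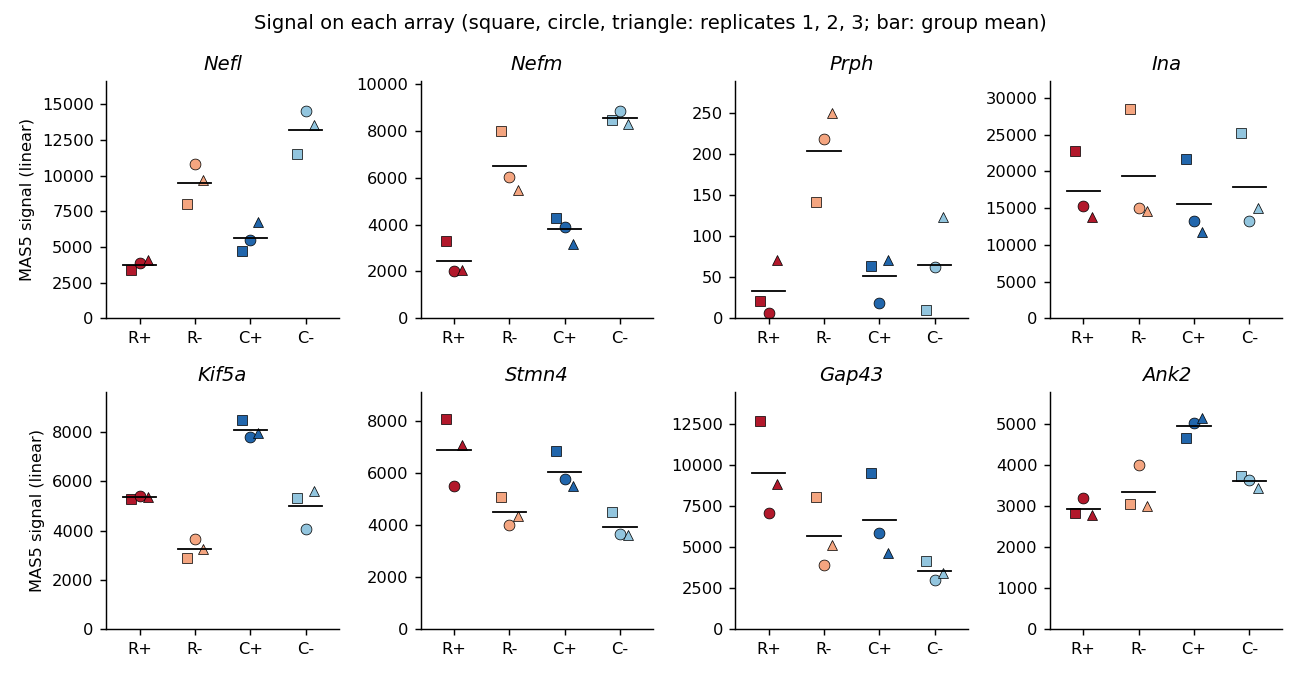
Array signal (MAS5) on a linear scale (y axis, different range in each panel) on each of the 12 arrays for 8 of the genes, by group; symbols mark replicates 1 to 3 and bars the group mean. Nefl and Nefm are low in R+ and C+, Prph is highest in R-, Kif5a and Stmn4 are high in the positive group of each domain, and replicate 1 is high in every group for Ina and Gap43.

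Stathmins bind free tubulin and promote microtubule disassembly, and Stmn4 passed in both domains. Stmn4 read 8056, 5480 and 7079 on the R+ arrays and 5069, 3992 and 4354 on the R- arrays, and 6845, 5737 and 5468 on the C+ arrays against 4499, 3628 and 3608 on the C- arrays. Each positive array was above each negative array of its domain. The differences were 0.61 ± 0.16 (limma adjusted p = 0.0194) and 0.62 ± 0.16 (adjusted p = 0.0163). The rostral call was lost without R+ replicate 1, R- replicate 2, R+ replicate 3 or R- replicate 3 (adjusted p from 0.0695 to 0.102), and the caudal call without C+ replicate 1, C- replicate 2 or C- replicate 3 (0.0514 to 0.0744). Stmn3 differed by 0.34 ± 0.14 rostrally and Stmn2, also known as SCG10 and a marker of growing axons, by 0.34 ± 0.19. Both passed there with the replicate block (adjusted p = 0.0072 and 0.0112) and not without it (0.136 and 0.315). Stmn1 differed by 0.13 and -0.17 in the rostral and caudal comparison, with adjusted p = 0.752 and 0.612. When every probe set was fitted on its own, a second bright Stmn2 probe set (12600 to 20557) passed as higher in C+ than in C- (0.49 ± 0.12, limma adjusted p = 0.0226), where the one that stands for the gene gave -0.04.

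Among the growth-cone proteins, Gap43, a membrane protein of growing axons, varied most. It read 12680, 7053 and 8825 in R+, 8034, 3908 and 5145 in R-, 9535, 5864 and 4623 in C+ and 4160, 2972 and 3405 in C-. In each domain the positive array of a replicate number was above the negative array of that number in 3 of 3 cases, but R+ and R- overlapped because replicate 1 was high in both. The differences of 0.76 ± 0.29 and 0.87 ± 0.29 did not pass without the block (limma adjusted p = 0.111 and 0.0615) and passed with it (0.000746 and 0.000221). Basp1 and Marcks, abundant proteins that sit under the growth-cone membrane, had differences of 0.03 and -0.23, and of -0.17 and -0.22, none of which passed. A dimmer Marcks probe set was lower in the positive cells, by 0.67 and 0.70 on the log2 scale, when every probe set was fitted on its own, whereas the probe set that stands for the gene did not pass.

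The probe sets that stand for the microtubule-stabilising proteins did not pass between positive and negative cells without the block. Map2, of dendrites, differed by 0.17 and 0.13, and Map1a by -0.37 ± 0.20 and -0.14 ± 0.20. Dcx, which marks migrating young neurons, had means of 11144 ± 811 in R+ and 10353 ± 640 in R-, and of 14173 ± 930 in C+ and 15135 ± 750 in C-, differences of 0.11 and -0.10 that did not pass. Its relative Dclk1 differed by 0.26 and 0.08, while another Dclk1 probe set passed rostrally when every probe set was fitted on its own (0.81 ± 0.13, limma adjusted p = 0.0014). Map1b, the main microtubule-associated protein of early axons, read 10759, 4533 and 3614 in R+ and 5099, 1617 and 2143 in R-, and 4773, 1150 and 1055 in C+ and 2072, 559 and 939 in C-. The replicate 1 arrays were the highest of each group by a wide margin. Its differences of 1.10 ± 0.60 and 0.80 ± 0.60 passed with the block and not without it (limma adjusted p = 0.306 and 0.471 without it, 0.000493 and 0.00548 with it). Tau, the product of Mapt, gave the same kind of result, with 0.63 and 0.31 (0.284 and 0.637 without the block, 0.000165 and 0.026 with it).

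None of the 4 tubulins, the microtubule subunits themselves, passed without the block. Tubb3, the neuron-specific beta-tubulin, differed by 0.30 ± 0.19 and -0.23 ± 0.19, Tubb2b by 0.13 and 0.04, and Tuba1a by 0.13 and -0.19. Tubb2a had 24266 ± 2256 in R+ and 18522 ± 2992 in R-, a difference of 0.40 ± 0.13 without overlap between the groups, which did not pass without the block (limma adjusted p = 0.0622) and passed with it (0.0062). Tubulin genes are near-identical in sequence, and the probe sets of Tuba1a and Tubb2a are of the kinds that can match other transcripts. A value may therefore belong to several tubulins. The probe sets that stand for Stmn1, Dpysl4 and Ank2 are of the same kind as that of Tubb2a. The collapsin response mediator proteins, which pass guidance signals to the cytoskeleton, gave no call either. For Crmp1 and Dpysl2 to Dpysl5 the differences ran from -0.12 to 0.44 rostrally and from -0.22 to 0.03 caudally. Of these Crmp1 passed rostrally with the block (0.44, adjusted p = 0.0436).

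Of the 5 kinesins Kif5a passed in both domains without the block. Kif5a, a neuron-specific heavy chain of conventional kinesin that moves neurofilaments and other cargo along axons, read 5306, 5413 and 5376 on the R+ arrays and 2885, 3648 and 3242 on the R- arrays. Caudally it read 8494, 7829 and 7955 on the C+ arrays and 5322, 4070 and 5608 on the C- arrays. The groups did not overlap in either domain. The differences were 0.72 ± 0.13 (limma adjusted p = 0.0019) and 0.71 ± 0.13 (adjusted p = 0.0021). They rest on a single probe set: a second one, of 27 to 161 signal units, differed by 0.24 and 0.27 and did not pass, and the mean of both did not pass either (adjusted p = 0.336 and 0.311). Kif5c, a related heavy chain, differed by 0.31 ± 0.12 and 0.25 ± 0.12 and passed with the block (adjusted p = 0.0095 and 0.0276) but not without it (0.14 and 0.233). Kif1a, which carries synaptic vesicle precursors, differed by 0.99 ± 0.44 rostrally and 0.09 ± 0.44 caudally. The first passed with the block (adjusted p = 0.0249) but not without it (0.187), and the C+ arrays ranged from 127 to 671. Kif21a and Kif21b differed by -0.06 and 0.15 rostrally and by -0.35 and 0.10 caudally, without a call.

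Ankyrin-B, encoded by Ank2, was raised in C+. It read 4657, 5035 and 5151 on the C+ arrays, against 3740, 3632 and 3439 on the C- arrays, 2832, 3187 and 2791 on the R+ arrays and 3043, 3997 and 3007 on the R- arrays. All 3 C+ arrays were above the other 9, and R+ and R- overlapped. The difference was 0.46 ± 0.13 between C+ and C- (limma adjusted p = 0.0302) and -0.18 ± 0.13 between R+ and R- (adjusted p = 0.482). The caudal call was lost without any of 5 of the 6 arrays compared (all but replicate 1 of C+; adjusted p from 0.0606 to 0.112). Ank3, which encodes ankyrin-G of the axon initial segment, differed by -0.07 and -0.02.

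**Figure D2:**
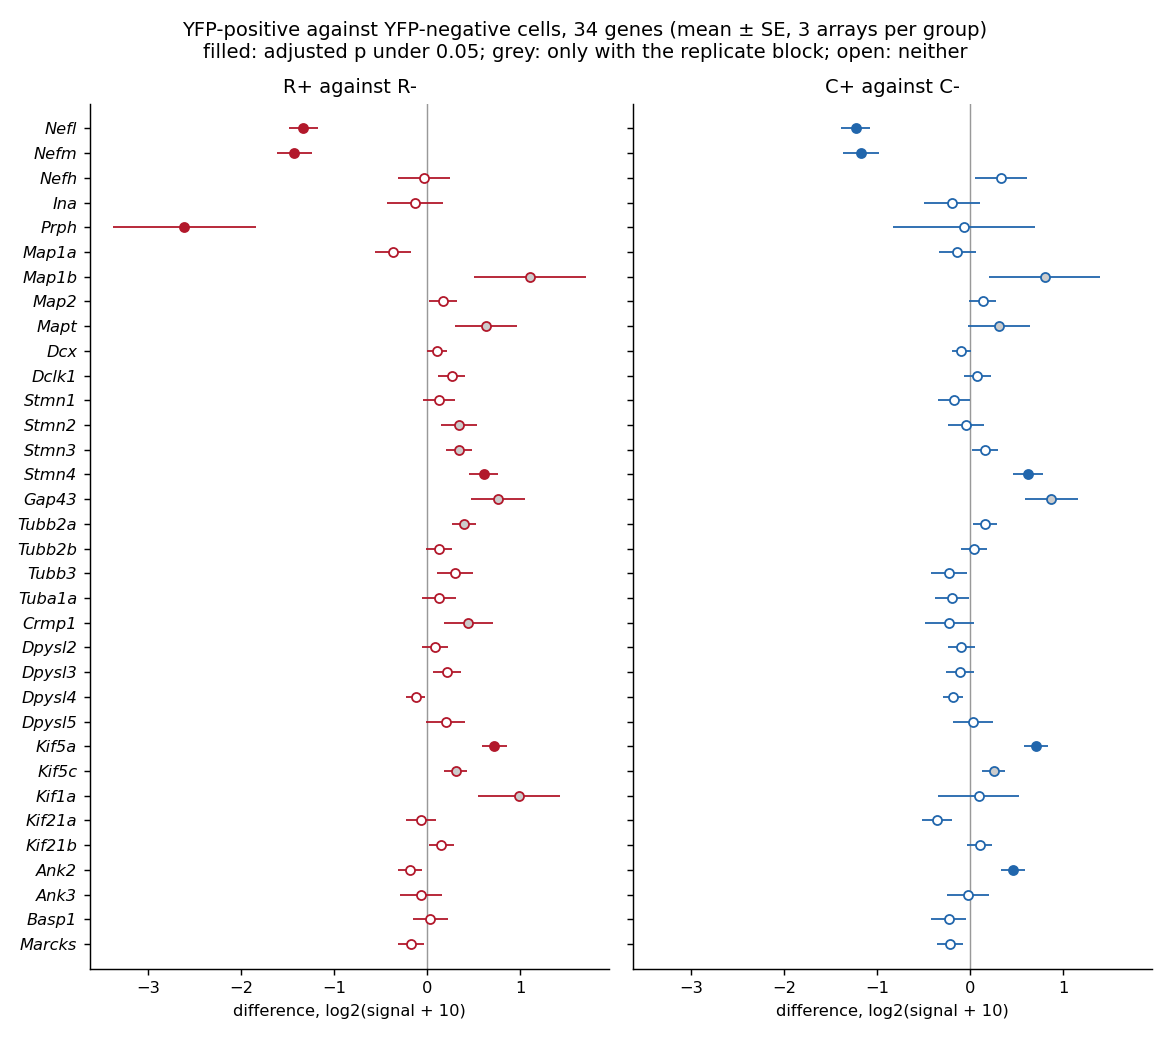
Difference between YFP-positive and YFP-negative cells for each of the 34 genes in log2(signal + 10), with its SE, rostrally (left) and caudally (right), on the same x axis; filled points passed an adjusted p of 0.05, grey points only with the replicate block. Nefl and Nefm lie near -1.3 in both panels, Kif5a and Stmn4 near 0.6 to 0.7, and 25 and 28 of the 34 genes lie within 0.5 of zero.

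The second question was how rostral and caudal serotonin neurons differed. R+ against C+, 0 of the 34 genes were higher and 4 lower (2.83% and 4.48% of all genes tested), while 11 were under an unadjusted p of 0.05 in either direction. With the replicate block 6 were higher and 8 lower (9.44% and 12.3%). Without replicate 1 of all groups 5 were higher and 6 lower (6.61% and 7.5%). All 3 R+ arrays lay above the C+ arrays for Stmn3 and below them for 8 genes (10.1% and 15.9% of all genes). Ank2 had the smallest p, at -0.75 ± 0.13 (limma adjusted p = 0.0026), and its second probe set was lower by 0.95. Kif5a differed by -0.59 ± 0.13 (adjusted p = 0.0161), and its second probe set by -0.60 without passing. Nefl differed by -0.58 ± 0.15 (adjusted p = 0.0363). Dpysl4, of the collapsin response mediator family, read 8673, 8865 and 8680 on the R+ arrays and 12856, 11953 and 11539 on the C+ arrays, a difference of -0.47 ± 0.11 (adjusted p = 0.0166). Its 2 other probe sets had the opposite sign, 0.45 and 0.19, and the mean of its probe sets gave 0.05.

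The block added genes on both sides. Map1b was higher in R+ than in C+ by 1.64 ± 0.18 (limma adjusted p = 3.25e-05 with the block, 0.113 without), Tubb3 by 0.64 ± 0.11 (0.00091 and 0.0592), Gap43 by 0.54 ± 0.13 (0.0113 and 0.283), and Mapt, Stmn2 and Stmn3 by 0.37, 0.35 and 0.29. Lower with the block were also Nefm at -0.66 ± 0.13 (0.0023 and 0.0503), Dcx at -0.35 ± 0.08 (0.007 and 0.058), Kif5c at -0.35 and Kif21b at -0.37. The 2 other Dcx probe sets had the opposite sign, 0.43 and 0.70, without passing. Several of the calls rest on few arrays: that of Nefl was lost without any of 5 of the 6 (all but C+ replicate 1; adjusted p from 0.0655 to 0.174), that of Dpysl4 without R+ replicate 1, C+ replicate 2 or R+ replicate 3 (0.0567 to 0.0696), and that of Kif5a without these or C+ replicate 3 (0.0545 to 0.0642).

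YFP-negative cells are the background for this comparison, since a difference between domains may be shared by all their cells. Cell type markers also differed by domain: 3 of 12 serotonergic markers were higher in R+ than in C+ and 5 in R- than in C-, and 3 of 10 GABA and glycine markers were lower in R+ than in C+ and 2 in R- than in C-. The summed mesenchyme and vessel markers were 1019 to 1222 in R+ against 3352 to 3675 in C+ and 1505 to 2185 in R- against 3254 to 4672 in C-. Dcn is the brightest gene in this sum. Of its 9 markers 1 passed as lower in R+ than in C+, with differences from -4.28 to 1.06. Between R- and C- 1 passed as lower, with differences from -1.59 to -0.28. The part of these cell types in the results was not tested. R- against C-, 0 of the 34 genes were higher and 3 lower (1.05% and 1.78% of all genes), with 10 under an unadjusted p of 0.05 in either direction. Dcx read 10589, 10841 and 9628 on the R- arrays and 14378, 15878 and 15150 on the C- arrays, with no overlap (-0.55 ± 0.10, limma adjusted p = 0.0085). Dpysl4 differed by -0.53 ± 0.11 (adjusted p = 0.0135) and Kif5a by -0.61 ± 0.13 (adjusted p = 0.0219). The 2 other probe sets of Dcx differed by 0.17 and -0.13. With the block 2 genes were higher and 7 lower (4.46% and 5.74%): Map1b at 1.33 and Gap43 at 0.65 were higher, and Nefl, Dpysl3, Kif5c and Kif21b joined the lower genes at -0.48, -0.26, -0.41 and -0.42. Without replicate 1 of all groups 1 was higher and 2 lower (1.23% and 1.59%). All 3 R- arrays lay above the C- arrays for Prph and below them for 7 genes (8.39% and 10.8% of all genes). The call of Dcx was lost without R- replicate 3 (adjusted p = 0.0509), that of Dpysl4 without C- replicate 1, R- replicate 3 or C- replicate 3 (0.0712 to 0.0779), and that of Kif5a without R- replicate 1, C- replicate 1, R- replicate 3 or C- replicate 3 (0.088 to 0.126). Prph was at 1.86 ± 0.76, with all 3 R- arrays above the C- arrays, and did not pass (adjusted p = 0.262).

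The beta-actin ratio, unlike that of Gapdh, separates the domains on 6 against 6 arrays with no overlap. These results were therefore also computed with the beta-actin ratio as a covariate. Then Ank2, Kif5a, Dpysl4 and Nefl no longer passed between R+ and C+ (-0.60, -0.38, -0.44 and -0.21, limma adjusted p = 0.141, 0.396, 0.217 and 0.673), and Nefm did (-1.12, adjusted p = 0.0226), so that 0 of the 34 genes were higher and 1 lower (0.716% and 0.965% of all genes). Between R- and C- 0 were higher and 0 lower with it (0.864% and 0.817%). The covariate fit has no replicate block. The genes higher in R+ only with the block had not passed without it, so they had no call to lose here. Their differences with the covariate were 0.00 for Map1b, 0.21 for Tubb3 and -0.05 for Stmn3. Those of Gap43, Mapt and Stmn2 were -0.30, -0.62 and -0.20. Between R- and C- Map1b and Gap43 fell to -0.03 and -0.05. The beta-actin ratio and the domain go together on these arrays, so this fit cannot tell them apart. The share of all genes that passed between R+ and C+ fell as well, from 2.83% higher and 4.48% lower without the covariate. The part of RNA quality in these differences was not tested further. The C+ and C- arrays share the high beta-actin ratios (5.79 ± 1.20 and 5.75 ± 1.69, SD, n = 3), as R+ and R- share the low ones (3.24 ± 0.52 and 3.52 ± 0.78). The Gapdh ratios were 3.20 ± 1.52 in C+ against 2.03 ± 0.48 in C-, and 1.38 ± 0.28 in R+ against 1.49 ± 0.57 in R-. Their part in the differences between C+ and C- was not tested.

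**Figure D3:**
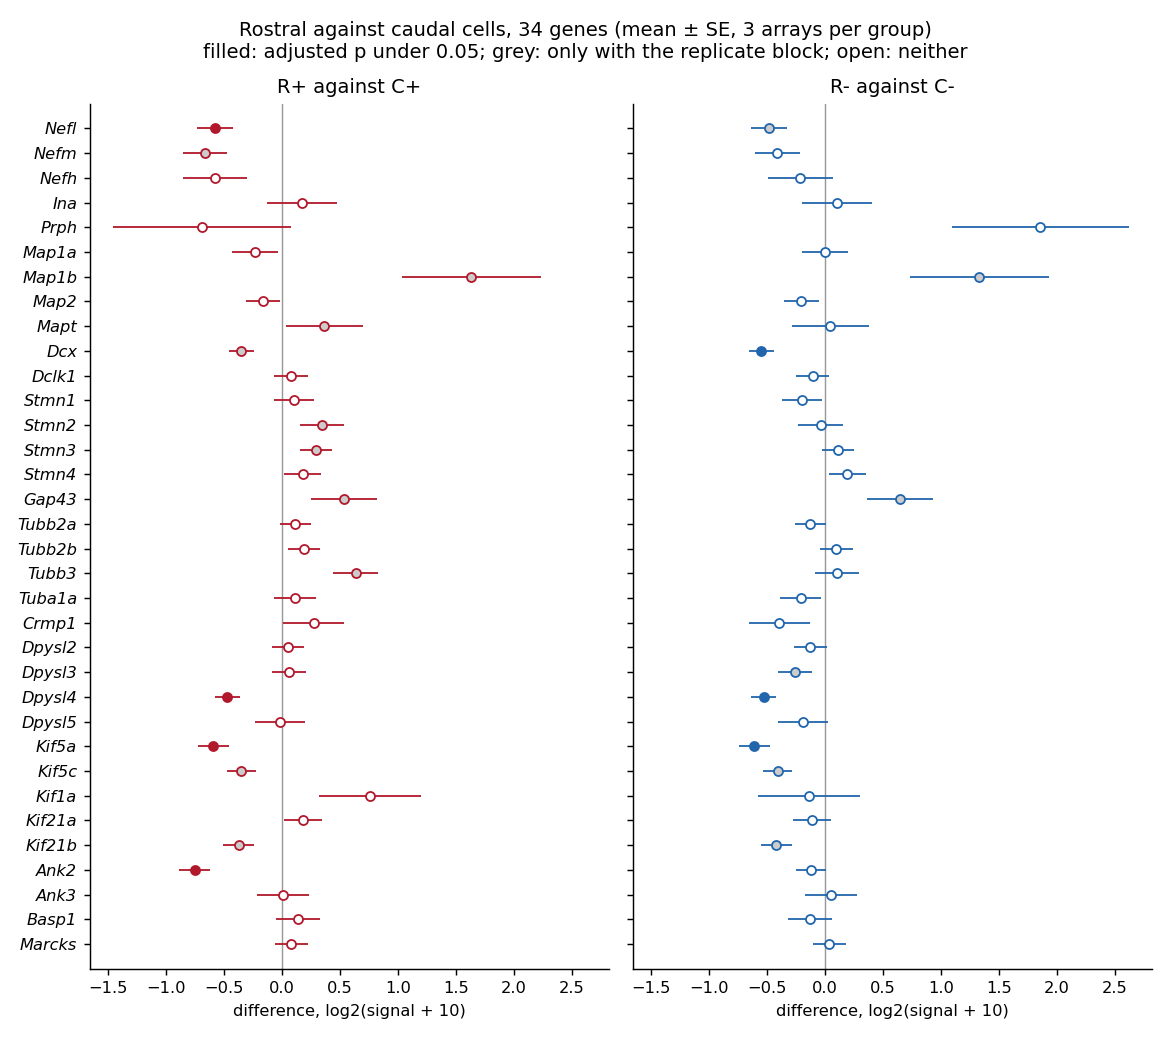
Difference between rostral and caudal cells for each of the 34 genes in log2(signal + 10), with its SE, in YFP-positive cells (left) and YFP-negative cells (right), on the same x axis; filled points passed an adjusted p of 0.05, grey points only with the replicate block. Dpysl4 and Kif5a lie near -0.5 to -0.6 in both panels, Ank2 is at -0.75 on the left and -0.12 on the right, and Map1b has the widest error of the genes at 1.64 and 1.33 after Prph.

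Whether the domain difference itself depended on the sort was tested as the difference of differences, (R+ minus C+) minus (R- minus C-). None of the 34 genes passed in limma (0 positive and 0 negative, beside 0.49% and 0.677% of all genes), and 2 were under an unadjusted p of 0.05, Ank2 and Prph. Ank2 had -0.63 ± 0.18 (adjusted p = 0.176), which passed with the replicate block (adjusted p = 0.0255). Its second probe set gave -0.84. Kif5a was at 0.02 ± 0.19 and Dpysl4 at 0.06 ± 0.15. With the block 0 were positive and 1 negative (1.1% and 1.55% of all genes). Without replicate 1 of all groups 1 was positive, Crmp1 at 0.98 (adjusted p = 0.0175), and 0 negative (0.763% and 0.942%).

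Probe sets of the same gene gave a further view of the domain comparison. Of the 34 genes 22 had several kept probe sets. The rostral minus caudal difference, averaged over positive and negative cells, ranged by over 1 on the log2 scale within 3 of these 22 genes, against 473 of 5561 among all genes, and the positive minus negative difference in 0 of 22, against 309 of 5561. The probe set that stands for Kif5c differed by -0.38 between domains and another by 2.78. That other probe set read 1332, 306 and 171 in R+, 741, 93 and 83 in R-, 97, 46 and 11 in C+ and 80, 10 and 13 in C-. Dpysl3 had -0.10 on its brightest probe set and 1.37 on another, and Dclk1 -0.01 on its brightest and 1.19, 1.07 and 1.17 on 3 others. The last of these passed as higher in R+ than in C+ (1.58) when every probe set was fitted on its own. The Dclk1 probe set at 1.19 was, like that of Kif5c, kept through rostral arrays alone. The 2 Map1b probe sets gave 1.48 and 1.40. These probe sets were also higher on replicate 1 than on replicates 2 and 3, by 2.28 for Kif5c, 1.80 for Dpysl3, 0.84 to 1.76 for Dclk1 and 1.62 and 1.52 for Map1b. The beta-actin ratio averaged 3.73 on replicate 1 and 5.00 on the other arrays, with overlapping ranges (2.64 to 4.89 and 3.30 to 7.69). In C- replicate 1 (4.89) was above replicate 2 (4.66). The part of RNA quality in the replicate 1 difference was not tested. Across the 77 kept probe sets the replicate 1 difference and the domain difference had a correlation of 0.66, and across all 22030 kept probe sets 0.33. These points share arrays and genes.

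**Figure D4:**
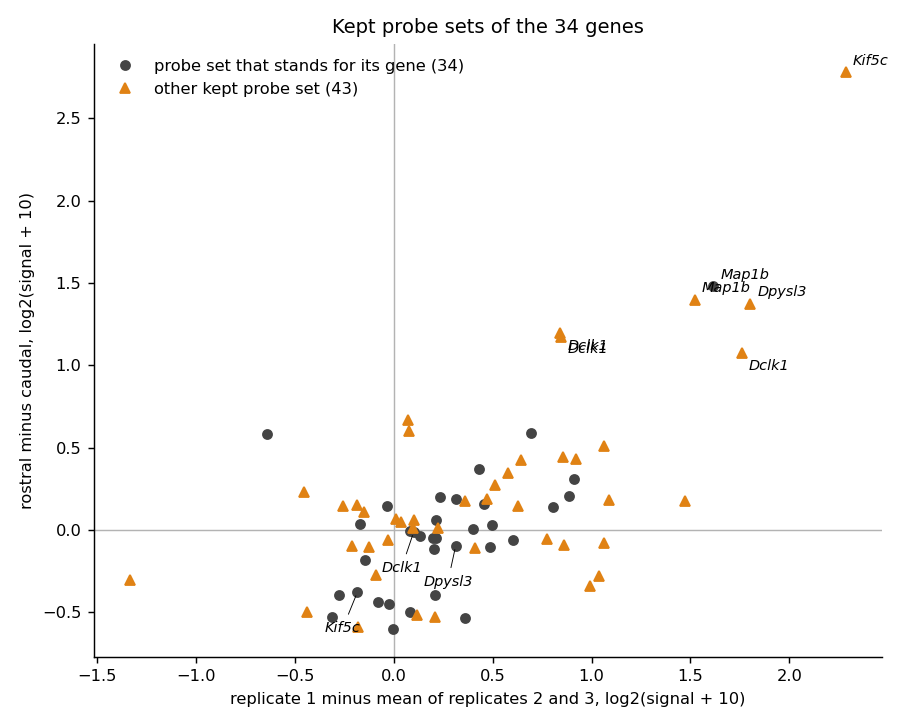
Each point is a kept probe set of the 34 genes, with replicate 1 minus the mean of replicates 2 and 3 on the x axis and rostral minus caudal on the y axis, both in log2(signal + 10); circles stand for their gene, triangles are other probe sets. The probe sets high in the rostral domain (Kif5c at 2.78, Map1b, Dpysl3 and Dclk1 between 1.07 and 1.48) are also high on replicate 1. Those of Kif5c at 2.78 and Dclk1 at 1.19 were kept by the filter through rostral arrays alone, which favours a rostral difference.

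Other genes of the same machinery were read from 7 lists of 144 genes, of which 130 were tested. R+ against R-, 9 were higher and 12 lower (6.92% and 9.23%, beside 4.34% and 7.86% of all genes), and with the block 26 and 15 (20% and 11.5%, beside 8.59% and 12.3%). C+ against C-, 12 were higher and 10 lower (9.23% and 7.69%, beside 5.71% and 7.39%), and with the block 22 and 13 (16.9% and 10%, beside 10.5% and 12.3%). Of 15 spectrins and membrane proteins bound by ankyrins 4 were higher and 0 lower rostrally, and 3 higher and 0 lower caudally, with list medians of 0.14 and 0.15. The adhesion molecule L1cam, which binds ankyrin, had 6447 ± 893 in R+ and 3675 ± 511 in R- (0.81 ± 0.17), and 9801 ± 1634 in C+ and 6024 ± 1099 in C- (0.70 ± 0.17). The beta-spectrin Sptbn1 differed by 0.54 ± 0.10 and 0.49 ± 0.10, and the membrane skeleton protein Epb41l1 by 1.02 ± 0.26 and 0.97 ± 0.26. Chl1, a relative of L1cam, passed rostrally at 0.80 ± 0.17.

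Among 28 other motors and adaptors 2 were higher and 1 lower rostrally and 4 higher and 2 lower caudally, with list medians of 0.15 and 0.07. Kif26a, an atypical kinesin, had the largest difference, 2.40 ± 0.36 (3971 ± 1131 in R+ and 756 ± 257 in R-, SD, n = 3) and 2.94 ± 0.36 (3055 ± 2061 in C+ and 343 ± 67 in C-). Kif3a, a kinesin-2 subunit, was higher by 0.53 and 0.59, and caudally Kif13a by 0.97 and the kinesin light chain Klc1 by 0.46. Nde1, a dynein partner of dividing progenitors, was lower by 2.03 and 1.69 on the log2 scale. Kif26b was lower caudally (-0.82 ± 0.15) and passed the difference of differences (0.93 ± 0.21, limma adjusted p = 0.0453). Of 25 other microtubule-binding proteins Map6, which protects microtubules from cold, was higher by 0.71 ± 0.19 and 1.07 ± 0.19, Apc rostrally by 0.42, and Map7d2 and Fez2 caudally by 0.61 and 0.51. None of the 25 was lower without the block, and the list medians were 0.18 and 0.15. Of 17 other tubulin and tubulin-folding genes the folding cofactor Tbce passed, caudally (0.58 ± 0.17), with list medians of 0.11 and -0.05.

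Of 30 actin and growth-cone regulators 1 was higher and 2 lower in each domain, with list medians of 0.09 and 0.07. Rnd2 and Rnd3 were lower: Rnd2 by 1.36 and 1.31, and Rnd3 by 0.39 rostrally and 1.29 caudally. Rnd3, like Kif26b, passed the difference of differences (0.90 ± 0.17, limma adjusted p = 0.0117). The GTPase Rac3 was higher rostrally by 1.18 ± 0.29 and the kinase Pak3 caudally by 0.90 ± 0.21. The genes of dividing cells were lower. Of 11 mitotic kinesins 7 were lower rostrally and 4 caudally. For 6 of the 11, Kif23 among them, fewer than 3 YFP-positive arrays exceeded the filter's 107. These needed the YFP-negative arrays to be kept, which favours such a difference, so the counts are a description and support nothing. Of 4 progenitor filament genes Vim was lower in both domains, by 1.25 and 1.27, with Nes lower rostrally and Lmnb1 caudally. These lists move with the progenitor and cell cycle markers, whose summed signal was 19657 to 23530 in R+ and 53582 to 59707 in R-, and 20314 to 27794 in C+ and 49332 to 52556 in C-. Their part in the result was not tested.

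**Figure D5:**
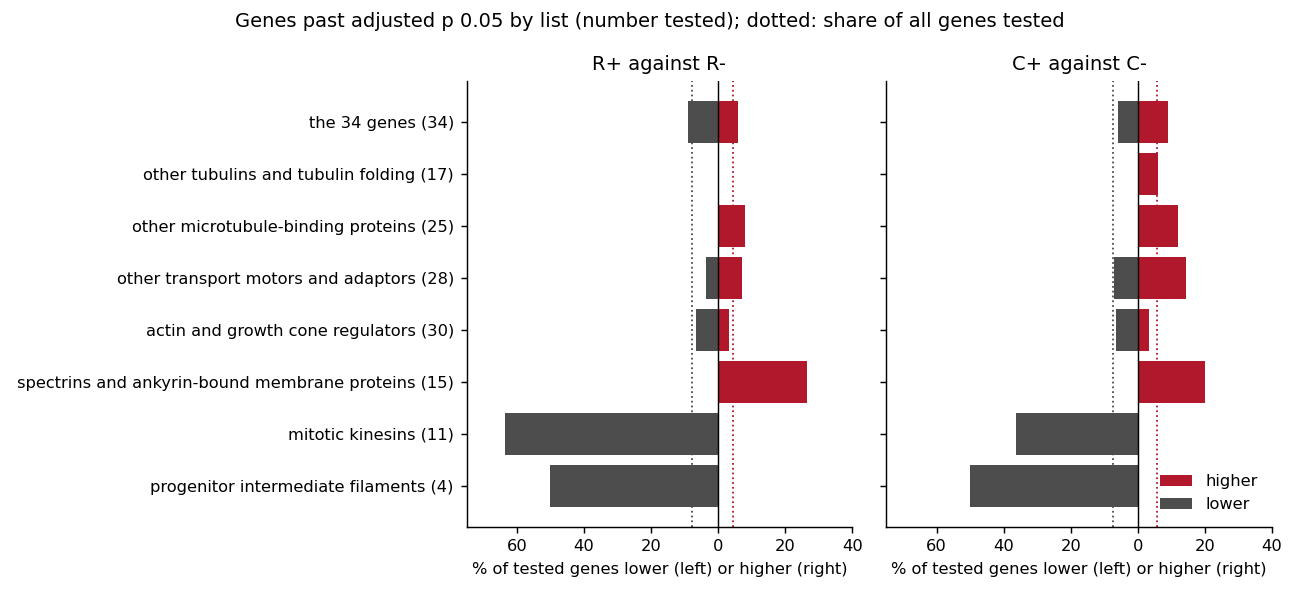
Share of the tested genes of each list that passed an adjusted p of 0.05, higher in YFP-positive cells to the right and lower to the left (x axis in percent), rostrally and caudally; dotted lines mark the share of all genes tested, 4.34% (higher) and 7.86% (lower) in the rostral panel, 5.71% and 7.39% in the caudal panel. Bars of the 34 genes lie near the dotted lines in both directions, and those of the mitotic kinesins (7 and 4 of 11) rest in part on 6 genes that the filter kept through the YFP-negative arrays.

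Between R+ and C+ the same 130 genes gave 3 higher and 10 lower (2.31% and 7.69%, beside 2.83% and 4.48% of all genes), and with the block 14 and 19 (10.8% and 14.6%, beside 9.44% and 12.3%). Lower in R+ were Ttl, the tubulin tyrosine ligase (-0.69 ± 0.13), and L1cam (-0.60 ± 0.17), both of which were also lower in R- than in C- (-0.59 and -0.71). Kif13a (-0.94 ± 0.18), Nfasc (-0.76 ± 0.21) and Map7 (-1.45 ± 0.38) were lower in R+ too. So were Tbce, Mid1, Clip1, Epb41l2 and Rac1, at -0.68, -0.84, -0.52, -0.69 and -0.56. Higher were Kif26b (0.76 ± 0.15), Rnd3 (1.45 ± 0.12) and Lmnb1 (0.59 ± 0.15). All of these come from fits without the beta-actin covariate. The beta-actin ratio goes together with the domain here too, and the part of RNA quality in these differences was not tested.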

How the data were processed

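The 12 arrays hold 45101 probe sets each. The authors deposited MAS5 signal intensity per probe set on a linear scale, per the submitters' processing notes, which name MAS5; not given in the sources used here are its version and settings. The values are whole numbers with a mean of 500 on every array after trimming 2% at each end, and no detection calls were used. The number of arrays limits the precision. Control probe sets (64) were left out. The filter kept probe sets that exceeded 107, the overall median signal, on 3 or more arrays. The brightest by mean log2 signal stands for its gene, and probe sets of suffix _x_at were used only for lack of others. The linear models were those of limma 3.58.1 (R 4.3.3), applied to log2(signal + 10), which understates changes of dim genes, with a mean per group over all 12 arrays, eBayes with a trend, and two-sided tests adjusted by Benjamini-Hochberg over 12845 genes in each of 5 comparisons. The 34 genes, the gene lists and the rules were chosen with earlier results of these data known. Every gene of the 34 could be named; from each other list, up to 4 genes per direction and comparison with the largest difference past the threshold. Deviations of same-numbered replicates correlated at 0.12 to 0.52 in 18 pairs of arrays, against -0.40 to 0.27 in 36 other pairs. Those of replicate 1 stood apart (0.33 to 0.52). Those of replicates 2 and 3 (0.12 to 0.24) overlapped with pairs of unlike number, so that a pairing of these is not shown. The labels do not say what the number marks. Tested on simulated data (12845 genes, the comparison of R+ with R-), the recovered share was 7.76% for log2 changes of 0.5, 49.9% for 1 and 83.6% for 2. The simulation drew independent normal noise for each array and changed fewer genes than passed in the data. It leaves out deviations shared by replicates, so these shares need not hold for the data. The alternatives were the offset, the filter, 2 scalings, other rules for the probe set, the replicate block, the beta-actin ratio as a covariate, other variance settings, only the groups compared, and arrays left out. No probe set's level was compared with that of another gene. As no genome build comes with the array, the only coordinates printed are those of RefSeq's promoter windows.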

Additional observations from a re-analysis of the deposited data

How the results depend on the processing

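Nefl and Nefm passed in both sort comparisons under 20 of 20 alternatives, and Kif5a under 19 of 20. Counts of the 34 genes that moved by over 1.5 times were as follows. With the replicate block, 11 (2 without it) were higher in R+ than R-, 7 (3) in C+ than C-, 6 (0) in R+ than C+ and 2 (0) in R- than C-, while 8 (4) were lower in R+ than C+, 7 (3) in R- than C- and 1 (0) in the difference of differences; the block changed no other count by that much. Without replicate 1 of all groups, 8 were higher in R+ than R-, 5 in R+ than C+, 1 in R- than C- and 1 in the difference of differences. With arrays scaled to a common median, 1 was higher in R+ than R- and 1 in C+ than C-, and 1 was lower in R+ than C+ and 0 in R- than C-. Quantile normalization gave 4 higher in R+ than R- and 7 lower in R+ than C+. The mean of a gene's probe sets gave 1 higher in R+ than R-, 1 lower in R+ than C+ and 0 lower in R- than C-, and turned Dpysl4 in R+ against C+ to 0.054 (adjusted p = 0.944). The beta-actin covariate left 1 lower in R+ than C+ and 0 in R- than C-. Without the eBayes trend 1 was higher in R+ than R-, 1 lower in R+ than C+ and 1 lower in R- than C-, and with only the groups compared 1 was lower in R- than C-. Leaving out single arrays gave 1 to 5 higher and 2 to 3 lower in R+ than R-, 1 to 3 higher and 2 to 3 lower in C+ than C-, 0 to 4 higher and 1 to 6 lower in R+ than C+, 0 to 3 lower in R- than C-, and 0 in the difference of differences. The cause of these changes was not tested. Over all settings, 262 values of called genes kept direction and call, 76 lost the call and 1 reversed.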
